A study of Mus musculus with 18 samples.

Results

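The liver genes described here are 10 genes whose expression in rodent liver is set by the pulse pattern of growth hormone, out of 12394 genes measured. They were picked by platform gene symbol, and 11 probe sets carry their symbols, 1 for each gene except Slco1a1, which has 2. Male-biased members were Cyp2d9, Cyp4a12a, Elovl3, Hsd3b5, Slco1a1, Susd4 and Ugt2b38, and female-biased members were Cyp2b9, Cyp2b13 and Sult3a1. The members were chosen for their levels in these same arrays, mainly for 1 array of GW4064-treated whole-body knockout mice and 1 of GW4064-treated wild type (WT) mice, so the levels in the GW4064 arrays of those genotypes are given as descriptions without a test. Livers came from male C57BL/6J mice aged 10 to 16 weeks that were WT, lacked the bile acid receptor FXR in hepatocytes through an albumin-driven Cre and a floxed Fxr allele (liver knockout), or lacked FXR in the whole body (whole-body knockout). Each genotype received vehicle or GW4064, a synthetic FXR agonist, by oral gavage, and livers were taken 2 hours after the last dose, with 1 liver per array and 3 arrays in each of 6 groups. The labels give 2 doses of 150 mg per kg for all mice, whereas the study's methods state a smaller dose given more often, and an overnight fast, for the WT mice. Whether that fast holds for the WT mice of these arrays, or for the knockout mice, is not given in the sources used here. If only the WT mice were fasted, genotype and feeding cannot be told apart in the comparisons with WT. Liver cells other than hepatocytes keep the receptor in the liver knockout.

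In rodents, the pituitary of males releases growth hormone in pulses with quiet intervals, whereas female secretion is closer to continuous. In hepatocytes the hormone acts through its receptor, the kinase JAK2 and the transcription factor STAT5b, and the pattern decides which steroid- and drug-metabolising enzymes the liver makes. Male-biased genes fall and female-biased genes rise in male livers when the pulses are lost, as is known from hypophysectomised and hormone-infused mice and rats.

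Values were RMA expression levels on a log2 scale, so a difference of 1 is a 2-fold difference, and array medians lay between 5.96 and 6.00. Nr1h4, the gene encoding FXR, was at 8.83 to 9.39 in the 6 WT arrays and at 3.98 to 4.69 in the 12 knockout arrays, so that each array matched its label as WT or knockout. Its levels overlapped between the 2 knockouts and do not tell them apart. The mean of 10 hepatocyte markers was 13.53 to 13.78 in all arrays. No detection call comes with these values, so a level near 4 is called low, not absent. The 2 arrays singled out, whole-body knockout GW4064 replicate 3 and WT GW4064 replicate 1, had the lowest mean correlations with the other arrays (0.986 each, against 0.992 to 0.994 in the other 16). Because the labels do not tie the animals to litters or days, p-values measure only the spread between these mice. Arrays of whole liver do not tell fewer cells of a type from less RNA per cell.

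In whole-body knockout GW4064 replicate 3, all 7 male-biased genes were at least 2-fold below both other arrays of its group and all 3 female-biased genes were at least 2-fold above them. The difference from the mean of replicates 1 and 2 had a median of -4.54 over the male-biased and 5.24 over the female-biased genes, on the log2 scale. Over all genes, 0.436% lay at least 2-fold below both other arrays of that group and 0.823% at least 2-fold above, and since the members were chosen from this array, nothing is read from these shares. Hsd3b5, a 3-ketosteroid reductase of male mouse liver (chr3:98618636-98645534, GRCm38.p6), was the gene furthest below its group among all 12394, at 4.91 against 11.92 and 12.18 in replicates 1 and 2. Its levels were 12.15, 11.61 and 11.53 in WT vehicle, 12.07, 11.90 and 12.07 in liver knockout vehicle, and 12.15, 12.01 and 11.39 in whole-body knockout vehicle livers. In liver knockout GW4064 livers they were 11.96, 12.13 and 11.59. All but the 2 singled-out arrays lay between 11.19 and 12.18, so the 141-fold lower RMA value in this array stands outside everything else in the series. The promoter window of Hsd3b5 is shown because the gene had the largest fall of all genes in this array. The RefSeq window on GRCm38.p6 covers 250 bases before to 50 bases after the start site (chr3:98645485-98645784, minus strand), and it is printed without capitals because none of the 4 motifs searched, described with the female-biased genes, was found in it.
Hsd3b5: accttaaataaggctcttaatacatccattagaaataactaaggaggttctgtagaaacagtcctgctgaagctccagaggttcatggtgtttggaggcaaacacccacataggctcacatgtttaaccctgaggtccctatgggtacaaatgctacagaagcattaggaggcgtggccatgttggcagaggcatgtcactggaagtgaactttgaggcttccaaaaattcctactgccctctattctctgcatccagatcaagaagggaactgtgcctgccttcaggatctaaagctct

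The other steroid, fatty acid and transport genes of the male liver were low in the same array, by up to 60.9-fold. Elovl3, which elongates very long chain fatty acids (chr19:46131897-46135694), was at 4.13 against 9.96 and 10.16 in the other 2 arrays of its group. Cyp4a12a, a fatty acid omega-hydroxylase (chr4:115299046-115332815), was at 6.94 against 12.05 and 11.71. Slco1a1, the sinusoidal transporter that takes up organic anions such as bile acids (chr6:141907281-141946962), was at 6.85 against 11.29 and 11.48. Counted from the most lowered of all genes by difference from the group, Elovl3 was number 2, Cyp4a12a number 3 and Slco1a1 number 4. Cyp2d9, a P450 that hydroxylates testosterone (chr15:82452377-82456827), was at 10.71, which is still a high level, against 13.69 and 13.74. Ugt2b38, a glucuronosyltransferase (chr5:87409939-87424203), was at 4.90 against 7.08 and 8.23, and Susd4, an inhibitor of complement (chr1:182764044-182896596), was at 7.82 against 9.90 and 9.59. The other Slco1a1 probe set was at 5.94 against 10.46 and 10.63. Thus the size of the fall differed widely within the group, from 3.80-fold for Susd4 to 141-fold for Hsd3b5. The smallest falls were those of the complement inhibitor and the glucuronosyltransferase. Ugt2b38 also had the lowest level of the male-biased genes in replicates 1 and 2, and RMA compresses differences at low levels.

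The female-biased genes were at the low end of the scale in nearly all other male livers. Sult3a1, a sulfotransferase of amines (chr10:33851020-33879475), was at 8.93 in whole-body knockout GW4064 replicate 3 and at 3.70 and 3.49 in replicates 1 and 2. In all arrays but the 2 singled out it lay between 3.36 and 3.75, with a median of 3.58. No other member was as flat across the 3 genotypes and both treatments, and the difference in this array was 40.3-fold. Cyp2b13 (chr7:26061388-26096197), a P450 of female mouse liver, was at 8.89 against 5.01 and 4.73, and Cyp2b9 (chr7:26173350-26210661), its neighbour in the same P450 cluster, was at 11.25 against 7.19 and 4.84. Counted from the most raised of all genes, Sult3a1 was number 2, Cyp2b9 number 3 and Cyp2b13 number 4. The only gene above them was Sult2a2, a hydroxysteroid sulfotransferase of female liver, at 13.04 in this array against 3.67 to 4.12 in the 16 arrays not singled out.

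The promoter windows of the 3 female-biased genes are shown because Cyp2b9 and Cyp2b13, described further on as differing in size of change in some arrays, have nearly the same letters there, and because Sult3a1 was the only member whose window held a STAT5-type motif. RefSeq gave windows for 8 of the 10 genes, 9 in all. In those of Cyp2b9 (chr7:26173159-26173458, plus strand) and Cyp2b13 (chr7:26061245-26061544, plus strand), 298 of 300 bases were identical, and the capitals mark the substitutions T48C and C104T, which give the Cyp2b9 base first and count positions from 1 at the 5′ end of the window. They lie 203 and 147 bases upstream of the start site. In the Sult3a1 window (chr10:33857472-33857771, plus strand), around a start site inside the annotated gene, capitals mark a match to TTCNNNGAA, the STAT5 motif, 109 bases upstream and a match to ATTGAT, a core of the HNF6 motif, 74 bases upstream. 
Cyp2b9: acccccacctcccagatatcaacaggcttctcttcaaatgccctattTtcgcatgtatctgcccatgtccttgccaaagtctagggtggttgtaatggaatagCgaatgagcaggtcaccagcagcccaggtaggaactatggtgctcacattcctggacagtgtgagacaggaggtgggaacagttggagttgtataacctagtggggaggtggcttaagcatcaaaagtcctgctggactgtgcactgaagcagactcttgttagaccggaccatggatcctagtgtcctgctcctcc
Cyp2b13: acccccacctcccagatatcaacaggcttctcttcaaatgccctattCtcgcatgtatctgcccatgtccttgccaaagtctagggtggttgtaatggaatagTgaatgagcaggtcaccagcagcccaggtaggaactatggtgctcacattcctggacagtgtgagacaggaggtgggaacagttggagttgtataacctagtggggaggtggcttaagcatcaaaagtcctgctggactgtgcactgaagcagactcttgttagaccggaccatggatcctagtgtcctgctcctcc
Sult3a1: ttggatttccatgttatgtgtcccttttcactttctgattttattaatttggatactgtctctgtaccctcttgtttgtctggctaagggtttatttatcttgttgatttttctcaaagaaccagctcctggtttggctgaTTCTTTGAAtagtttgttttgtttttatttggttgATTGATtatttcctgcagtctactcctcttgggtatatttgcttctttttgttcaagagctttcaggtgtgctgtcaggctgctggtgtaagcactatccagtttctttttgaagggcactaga

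Motifs were searched on both strands. Of all 32851 RefSeq windows of this length, 8.3% held the STAT5 motif and 7.54% held the HNF6 core. The core of the CUX2 motif, ATCGAT, was held by 0.925% and by no member window. The letters TATAAA, searched for the TATA box, were held by 13.6%. They matched on the opposite strand, as TTTATA, in the window of Cyp2d9, 28 bases upstream. The same opposite-strand match was at 2 places in Slco1a1, 209 and 99 bases upstream. These matches describe letters in short windows. They say nothing on where STAT5b or another factor binds, and known STAT5 sites of liver genes often lie far from the start site.

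**Figure D1:**
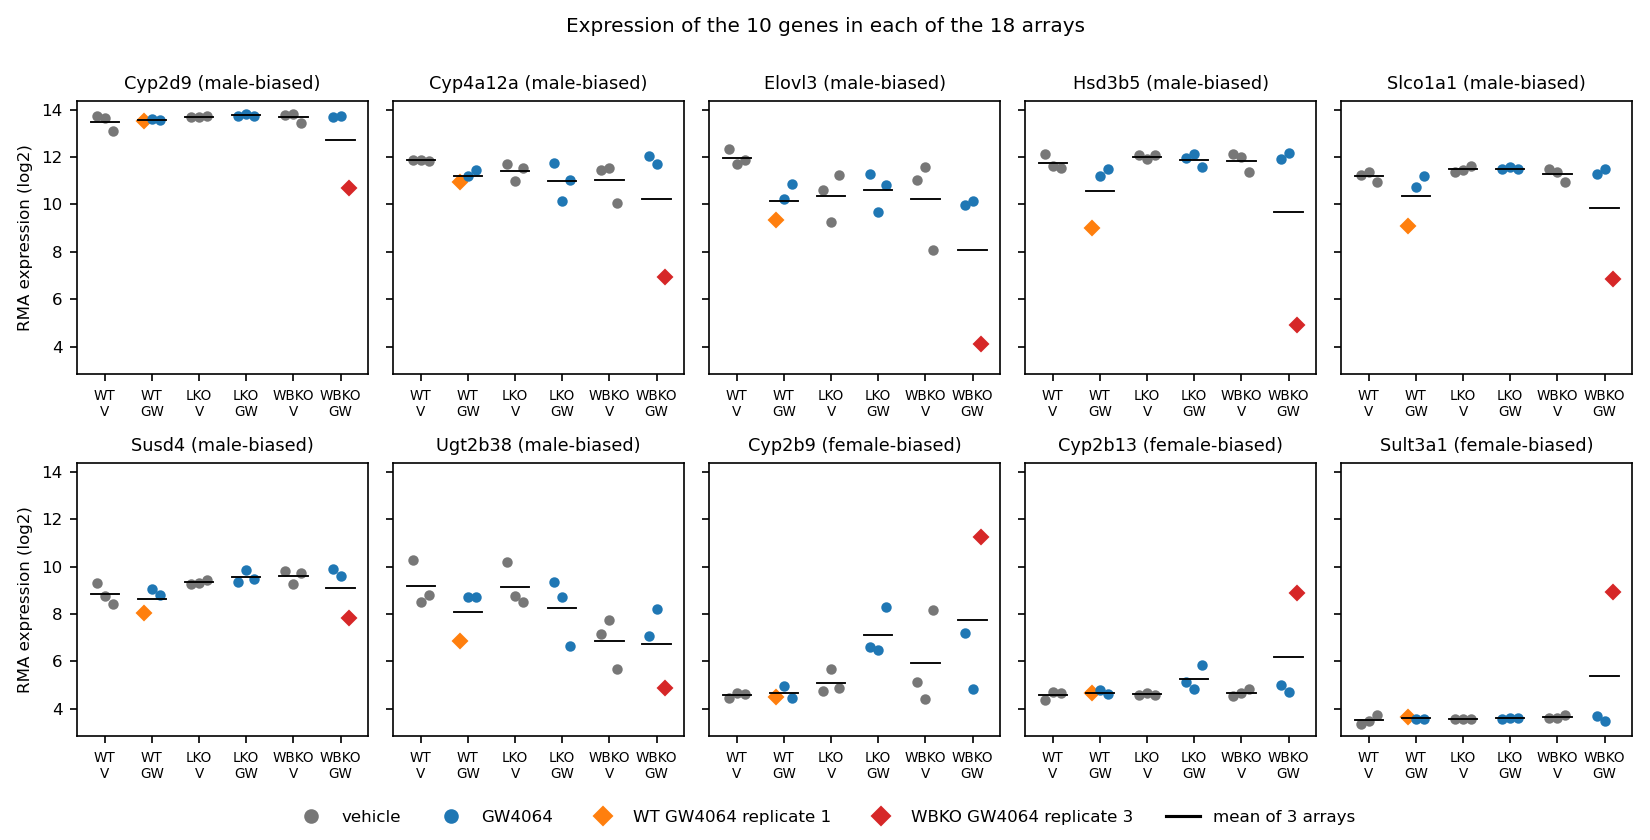
RMA expression (log2, y axis) of the 10 genes in each array, by genotype (WT, LKO for liver knockout, WBKO for whole-body knockout) and treatment (V for vehicle, GW for GW4064) on the x axis; each point is 1 array (1 mouse) and the line is the mean of 3. In whole-body knockout GW4064 replicate 3 (red diamond) the male-biased genes lie at 4.13 to 10.71 and the female-biased genes at 8.89 to 11.25, whereas WT GW4064 replicate 1 (orange diamond) is low for Hsd3b5, at 9.03, and at the level of its group for Sult3a1, at 3.66.

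Other sex-biased liver genes, from lists that did not include the members, went the same way in whole-body knockout GW4064 replicate 3. Of 18 measured male-biased genes, all 18 were below the mean of the other 2 arrays, 9 of them at least 2-fold below both, with a median difference of -1.27. The median of this list, taken the same way in each of the 16 arrays not singled out, was between -0.33 and 0.71. Serpina12, the adipokine vaspin, was at 6.76 against a mean of 10.76, Nat8f5, an acetyltransferase family gene, at 6.15 against 9.68, and Cyp7b1, the oxysterol 7alpha-hydroxylase, at 9.39 against 12.55. Moxd1, a monooxygenase-like gene, was at 4.87 against 8.93, but it spread from 4.68 to 10.98 over the 16 arrays and was thus not outside their range. Of 22 measured female-biased genes, 21 were above the mean of the other 2 arrays, 11 of them at least 2-fold above both, with a median of 1.503. Besides Sult2a2, these included the estrogen sulfotransferase Sult1e1 (9.44 against 5.99), the anion transporter gene Slc22a26 (8.21 against 5.19) and the peroxisomal oxidase gene Hao2 (6.25 against 3.57). The lists were put together with earlier results of these arrays known, so the counts describe this liver and are no independent evidence.

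Transcripts of the sex chromosomes were measured as a check of the labelled sex. The Y-linked genes Kdm5d and Uty were at 6.37 and 6.59, within the range of the 16 arrays not singled out (6.13 to 6.70 and 5.86 to 6.82), and Eif2s3y was at 7.99, under their range of 8.17 to 9.32. Xist, which is transcribed from the inactive X chromosome of females, was at 5.52, within the range of 5.19 to 6.11. No female liver was measured, so the levels of the female-biased genes cannot be set against those of females here.

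Genes of growth hormone receptor signalling had not moved together in whole-body knockout GW4064 replicate 3. Of 16 measured genes, 10 were above and 6 below the mean of the other 2 arrays, with a median of 0.05 against -0.12 to 0.11 in the 16 arrays not singled out, and 1 gene was at least 2-fold below both. That gene was Cish, a STAT5 target that restrains cytokine signalling, at 7.66 against 9.09 and 8.73. It was at 7.34 to 10.00 in the 16 arrays, so that its level was not outside their range. Socs2, a STAT5-induced inhibitor of the receptor, was at 6.29, also within their range of 5.81 to 8.75. Ghr, the receptor itself, was at 12.27 here and at 12.04 in WT GW4064 replicate 1, and in the 16 others it was at 12.48 to 12.89, so that the 2 singled-out arrays had the lowest levels of the series. Jak2 and Stat5b were at 7.31 and 7.39, against 7.30 to 7.73 and 7.29 to 8.15. Igf1, the main endocrine target of the hormone in liver, was at 11.98, against 12.00 to 12.64, and Igfals, the partner of IGF1 in blood, at 8.51 against 8.61 to 9.37. Ghr, Jak2, Stat5b, Igf1 and Igfals were named after their values were seen. Igf1 differed by -0.32 on the log2 scale from the mean of the other 2 arrays. Ghr, Igf1 and Igfals lay under the range of the 16 arrays, whereas Jak2 and Stat5b lay within theirs. The part of these genes in the levels of the members was not tested.

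Other genes moved in the same liver. Of 29 acute phase genes, 25 were above the mean of the other 2 arrays, 8 at least 2-fold above both, with a median of 0.40, and the metallothionein genes Mt1 and Mt2 stood at 13.95 and 13.23 against means of 10.38 and 9.57, with up to 13.62 and 13.50 in the 16 arrays not singled out. Of 10 Kupffer cell and macrophage markers all 10 were higher, with a mean level of 8.72 against 8.03 and 7.93 in the same group and 7.30 to 8.45 in the other groups. Of 12 endothelial markers 10 were lower, with a mean level of 6.93 against 7.15 and 7.20. The means of hepatocyte markers were 13.53, 13.69 and 13.64 in the 3 arrays. The part of these genes in the levels of the members was not tested.

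**Figure D2:**
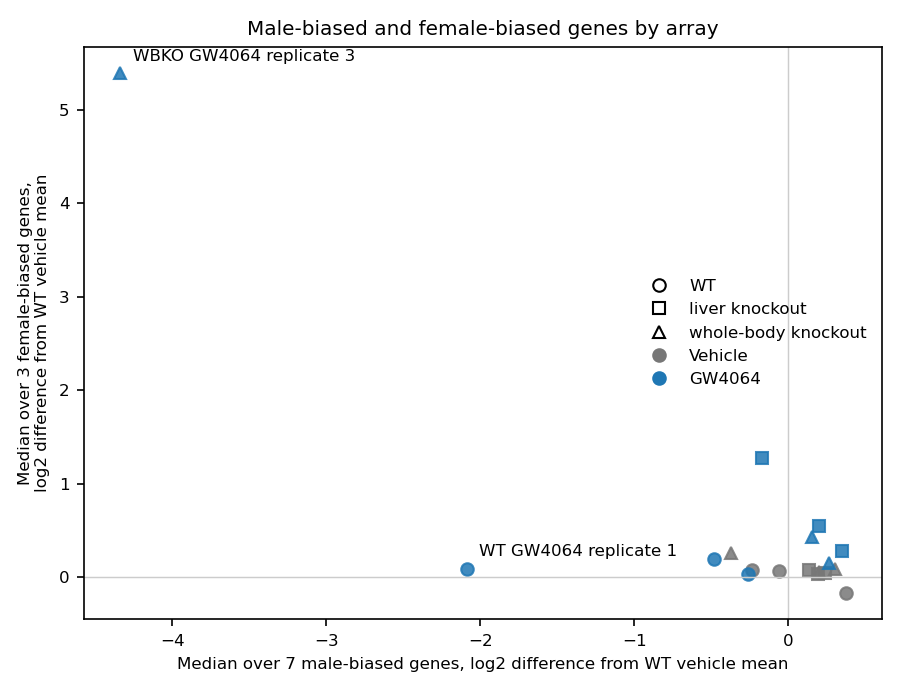
Each point is 1 array, placed by the median log2 difference from the WT vehicle mean over the 7 male-biased genes (x axis) and over the 3 female-biased genes (y axis); symbols give the genotype and colours the treatment. Whole-body knockout GW4064 replicate 3 lies at -4.34 and 5.40 (male- and female-biased), WT GW4064 replicate 1 at -2.09 and 0.09, and the other 16 arrays lie between -0.48 and 0.37 for the male-biased and between -0.17 and 1.28 for the female-biased genes.

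WT GW4064 replicate 1 was low for most male-biased genes but not high for any female-biased member. The male-biased genes had a median difference of -1.20 from the mean of replicates 2 and 3, and all 7 differences were negative, 3 of them with the array at least 2-fold below both, where 0.476% of all genes were that low, from which nothing is read. Hsd3b5 was at 9.03 against 11.19 and 11.50, Slco1a1 at 9.09 against 10.75 and 11.20, and Ugt2b38 at 6.88 against 8.72 and 8.70. These are 4.99-, 3.68- and 3.55-fold lower values. Elovl3 was at 9.36 against 10.25 and 10.88, and Susd4 was at 8.05 against 9.06 and 8.80. Cyp4a12a was at 10.96 against 11.22 and 11.44, and Cyp2d9, at 13.54 against 13.62 and 13.58, did not differ by more than 0.06 from the mean of the others. The order of the falls was therefore not that of the whole-body knockout array, where Cyp2d9 was 8.00-fold lower and Cyp4a12a 30.8-fold lower.

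Cyp2b9, Cyp2b13 and Sult3a1 were at 4.52, 4.67 and 3.66 in WT GW4064 replicate 1. Their differences from the mean of replicates 2 and 3 were -0.21, -0.02 and 0.08, and none was at least 2-fold above both, against 0.21% of all genes. Of the other 18 male-biased genes, 16 were lower than the mean of the other 2 arrays, with a median of -0.42, and Nudt7, a peroxisomal coenzyme A hydrolase, had the largest fall among them (11.19 against a mean of 12.72). Of the other 22 female-biased genes, 14 were higher, with a median of 0.19, and 3 lay at least 2-fold above both. Sult1e1 was at 6.33 against a mean of 4.22, and Cyp17a1, the steroid 17alpha-hydroxylase, at 9.17 against 7.43. Sult2a2 was at 4.10, which is a level found in vehicle livers.

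Inflammation markers were at their highest in this same array. All 29 acute phase genes were above the mean of the other 2 WT GW4064 arrays, with mean levels of 12.80, 12.37 and 10.96 in replicates 1, 2 and 3 and of 10.56 to 10.63 with vehicle. Replicate 2 had the next highest acute phase level of the series. In it Hsd3b5, Slco1a1 and Ugt2b38 were at 11.19, 10.75 and 8.72, against lowest WT vehicle values of 11.53, 10.95 and 8.52. Elovl3 and Cyp4a12a were at 10.25 and 11.22 in replicate 2, against lowest WT vehicle values of 11.69 and 11.83. Susd4 and Cyp2d9 were at 9.06 and 13.62, against 8.42 and 13.08. Socs3, an inhibitor induced by interleukin 6, was at 10.47, 10.15 and 7.55 in the 3 arrays. Of 12 endothelial markers all 12 were lower in replicate 1, with a mean level of 6.31 against 6.81 and 6.93, and 8 of 10 stellate cell and fibroblast markers were lower, with a mean level of 6.08 against 6.81 and 6.80. Neutrophil marker means were 5.93, 5.39 and 4.88, against 4.86 to 5.11 with vehicle. Of these 6 markers, 4 were higher and 2 lower in replicate 1, and only S100a8 and S100a9 were at least 2-fold above both. Their median difference over the 6 markers was 0.18, against -0.20 to 0.27 in the 16 arrays not singled out. Hepatocyte marker means were 13.63, 13.74 and 13.75. The part of these genes in the levels of the members was not tested.

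**Figure D3:**
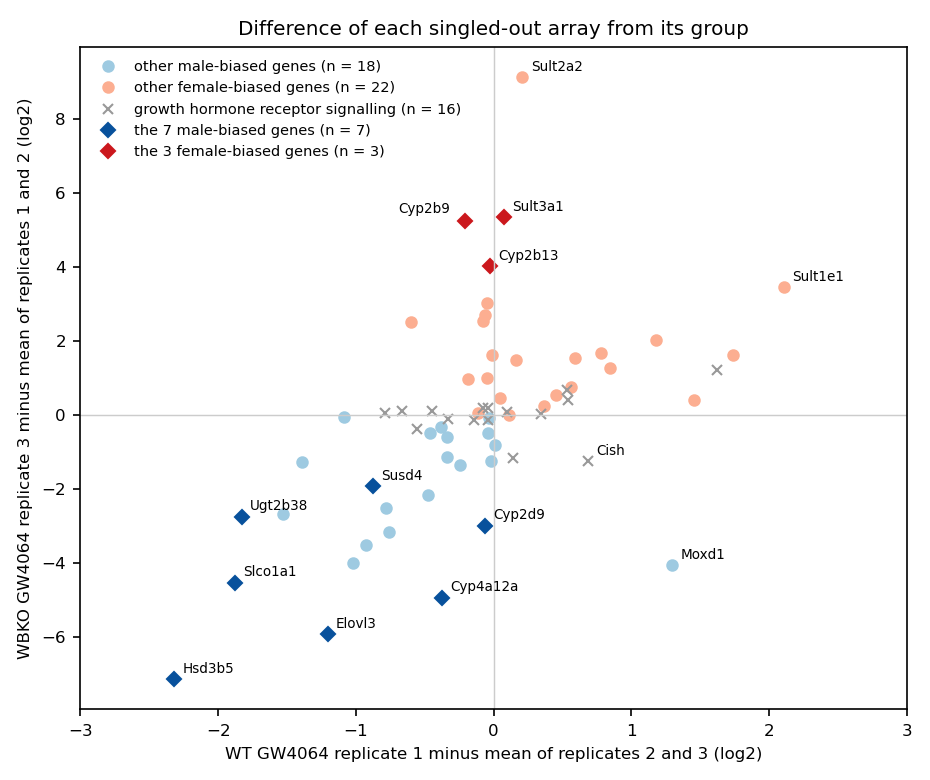
For each gene, the difference of WT GW4064 replicate 1 from the mean of replicates 2 and 3 (x axis) is set against that of whole-body knockout GW4064 replicate 3 from the mean of replicates 1 and 2 (y axis), both in log2 units; dark blue and red diamonds are the 7 male- and 3 female-biased genes, light blue and orange points the 18 and 22 genes of the other sex-biased lists, and crosses 16 growth hormone receptor signalling genes. Hsd3b5 is the member furthest below 0 on both axes, at -2.32 and -7.14, whereas the 3 female-biased members lie at 4.02 to 5.33 on the y axis and between -0.21 and 0.08 on the x axis.

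A weaker departure in the same directions was seen in a vehicle liver for some of the members. In whole-body knockout vehicle replicate 3, 3 of 7 male-biased genes were at least 2-fold below both other arrays of the group, and 1 of 3 female-biased genes was at least 2-fold above. Elovl3 was at 8.07 against 11.05 and 11.60, Cyp4a12a at 10.07 against 11.45 and 11.53, and Ugt2b38 at 5.68 against 7.17 and 7.73. Cyp2b9 was at 8.18 against 5.14 and 4.42. Hsd3b5, the most lowered gene in the GW4064 array, was at 11.39 against 12.15 and 12.01, Susd4 was at 9.71 between the other values of 9.26 and 9.82, and Sult3a1 was at 3.72 against 3.62 and 3.59. The median differences in this array were -0.69 and 0.24 for the male- and female-biased genes, and 0.0403% of all genes were at least 2-fold below and 0.0807% at least 2-fold above both other arrays. This array was singled out here after its values were seen.

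Cyp2b9 was higher by more than Cyp2b13 in several livers. In whole-body knockout vehicle replicate 3 Cyp2b9 was at 8.18 while Cyp2b13 was at 4.84, against 4.54 and 4.65 in the other 2 arrays. In whole-body knockout GW4064 replicate 1 Cyp2b9 was at 7.19 and Cyp2b13 at 5.01. In liver knockout GW4064 livers Cyp2b9 was at 6.59, 6.48 and 8.29 and Cyp2b13 at 5.12, 4.85 and 5.85, against 4.75, 5.68 and 4.89 and 4.58, 4.66 and 4.59 with vehicle. In WT livers both were between 4.36 and 4.97 with either treatment. Because the 2 genes are close relatives, their probe sets may share signal, and how far they do was not tested. The same holds for Cyp2d9, Cyp4a12a and Ugt2b38, which have near-identical copies in the mouse genome.

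With vehicle, the 3 genotypes are compared in arrays other than the 2 singled out, although the genes were chosen with the levels of all arrays known. None of the 10 genes passed limma's test at an adjusted p under 0.05 in liver knockout against WT, in whole-body knockout against WT, or in whole-body against liver knockout, and none passed the methods' t-test after adjustment. At an unadjusted p under 0.05 by limma there were 0, 1 and 1 of the 10 genes, against 12.6%, 13.3% and 12.2% of all genes. These member counts were 2, 4 and 1 without the 2 singled-out arrays, against 14.7%, 15.8% and 14.5% of all genes, and 5, 4 and 1 with only the compared groups in the fit, against 14.2%, 13.7% and 15.7%. Of all genes, 0.879%, 1.14% and 0.678% passed limma's test in these comparisons. Ugt2b38 was at 10.27, 8.52 and 8.81 in WT, at 10.18, 8.76 and 8.505 in liver knockout and at 7.17, 7.73 and 5.68 in whole-body knockout livers. The whole-body knockout arrays all lay below those of WT and of the liver knockout. The log2 difference from WT was -2.34 (standard error 0.84, 95% interval -4.12 to -0.56, adjusted p = 0.225) and from liver knockout -2.29 (standard error 0.84, adjusted p = 0.256). Without replicate 3 of the whole-body knockout vehicle group the differences were -1.75 and -1.70 (adjusted p = 0.531 and 0.626 by limma). Susd4 went the other way, with 9.31, 8.77 and 8.42 in WT, 9.26, 9.30 and 9.43 in liver knockout and 9.82, 9.26 and 9.71 in whole-body knockout livers, a log2 difference of 0.77 (standard error 0.39, adjusted p = 0.429) between whole-body knockout and WT.

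Elovl3 and Cyp4a12a had lower means in both knockouts with vehicle, and neither passed the test. Elovl3 was at 12.34, 11.69 and 11.86 in WT, at 10.59, 9.24 and 11.25 in liver knockout and at 11.05, 11.60 and 8.07 in whole-body knockout livers, and neither knockout overlapped WT. The differences were -1.60 (adjusted p = 0.654) and -1.73 (adjusted p = 0.572), each with a standard error of 1.20, and the second was -0.64 without whole-body knockout replicate 3. Without the 2 singled-out GW4064 arrays the intervals were -3.09 to -0.12 and -3.21 to -0.24, with adjusted p-values by limma of 0.296 and 0.232. With only the compared groups in the fit the adjusted p-values by limma were 0.132 and 0.357. Cyp4a12a was at 11.88, 11.89 and 11.83 in WT, at 11.73, 10.98 and 11.52 in liver knockout and at 11.45, 11.53 and 10.07 in whole-body knockout livers, with differences of -0.46 and -0.85 (adjusted p = 0.895 and 0.735). Arrays did not overlap for 3 of the 10 genes in liver knockout against WT (Cyp4a12a, Elovl3 and Cyp2b9), for 3 in whole-body knockout against WT (Cyp4a12a, Elovl3 and Ugt2b38) and for 2 in whole-body against liver knockout (Ugt2b38 and Sult3a1), where 20.3%, 19.6% and 21.4% of all genes did not overlap. These member counts lay near those shares.

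The spread of each gene in this test was shared by all 6 groups, so the 2 singled-out arrays widen the intervals of the comparisons among the other groups. Without these 2 arrays the standard errors of Hsd3b5 and Sult3a1 fell from 1.24 to 0.20 and from 0.88 to 0.09, while the vehicle differences were the same. None of the 10 genes passed then either, with 1.76%, 2.15% and 1.08% of all genes called in the 3 comparisons. The lowest adjusted p-values by limma were 0.0578 for Susd4 and 0.0905 for Ugt2b38 between whole-body knockout and WT. For Hsd3b5, the interval of the difference from WT was -0.17 to 0.66 in liver knockout and -0.33 to 0.50 in whole-body knockout, and for Slco1a1 it was -0.01 to 0.60 and -0.21 to 0.40. For Sult3a1 the intervals were -0.16 to 0.23 and -0.08 to 0.31. The interval from whole-body knockout to WT was wider for Elovl3, at -3.21 to -0.24, for Ugt2b38, at -3.77 to -0.91, and for Cyp2b9, at -0.30 to 2.97.

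**Figure D4:**
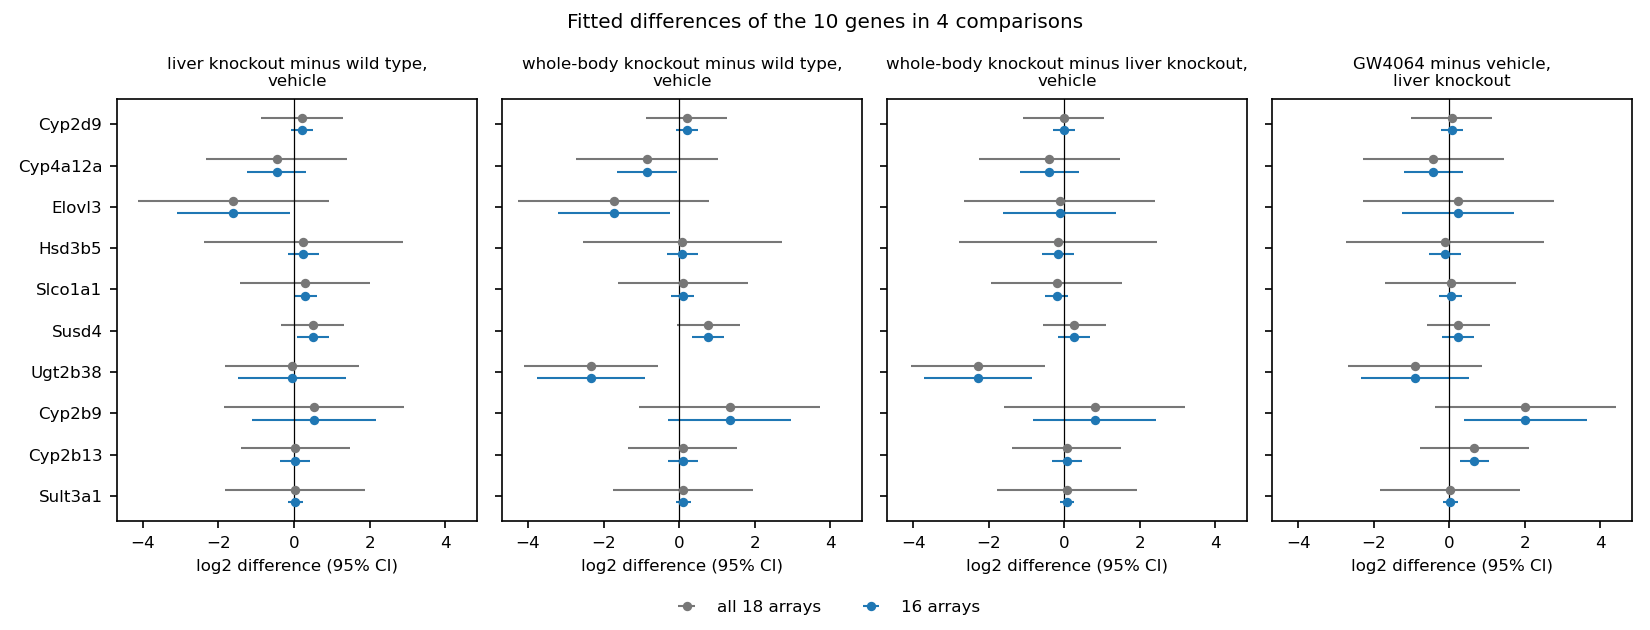
Fitted log2 differences (x axis, points, with 95% confidence intervals as lines) of the 10 genes in 4 comparisons, from all 18 arrays (grey) and from the 16 arrays without the 2 singled out (blue). The points are the same in both fits and the intervals are narrower without the 2 arrays, as for Hsd3b5 with standard errors of 1.24 and 0.20, and Ugt2b38 lies at -2.34 and -2.29 in the comparisons of the whole-body knockout.

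In the liver knockout, GW4064 acts on mice without the receptor in hepatocytes. None of the 10 genes passed limma's test there and 0 had an unadjusted p under 0.05. Without the 2 singled-out arrays, and also with only the compared groups in the fit, 2 had an unadjusted p under 0.05, against 6.04% and 6.93% of all genes. By the methods' t-test none passed after adjustment. Of all genes 0% passed limma's test, with 5.02% at an unadjusted p under 0.05, and the t-test called 0 after adjustment. The male-biased genes had a median log2 difference of 0.04 and the female-biased genes of 0.67, which was 0.38 without liver knockout GW4064 replicate 3. Cyp2b9, with the values given for it above, was higher in all 3 GW4064 arrays than in the 3 vehicle arrays, and so was Cyp2b13, where arrays did not overlap for 12.2% of all genes. The differences were 2.01 (standard error 1.13, interval -0.38 to 4.40) for Cyp2b9 and 0.67 (standard error 0.68, interval -0.77 to 2.11) for Cyp2b13, each with an adjusted p of 0.9996 by limma. Without the 2 singled-out arrays the adjusted p-values by limma were 0.679 and 0.441, with 0.0161% of all genes called. Cyp2b10, the Cyp2b gene that drugs induce, was named after its values were seen and spread from 7.36 to 10.78 over the 16 arrays. Ugt2b38 was at 9.34, 8.73 and 6.64 in these GW4064 livers, and replicate 3, with its lowest value, had the highest values of Cyp2b9 and Cyp2b13 of the group.

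For GW4064 against vehicle in WT and whole-body knockout livers, values are given as descriptions. The group means of the male-biased genes differed by a median of -0.83 in WT, from -1.80 for Elovl3 to 0.09 for Cyp2d9, and those of the female-biased genes by 0.07 to 0.11. The median of the male-biased genes was -0.42 without WT GW4064 replicate 1 and -1.26 without replicate 3, and the difference of Hsd3b5 was -0.42 without replicate 1. In WT livers the GW4064 arrays of Cyp4a12a, Elovl3 and Hsd3b5 all lay below the vehicle arrays, where 14.7% of all genes did not overlap. Elovl3 was at 9.36, 10.25 and 10.88 with GW4064 and at 11.69 to 12.34 with vehicle, so the gap was present in replicates 2 and 3 as well. Cyp4a12a was at 10.96, 11.22 and 11.44 against 11.83 to 11.89. In whole-body knockout livers no member was without overlap, against 10.3% of all genes, and the mean differences of -2.18 for Hsd3b5, -1.41 for Slco1a1 and 1.73 for Sult3a1 became 0.20, 0.11 and -0.05 without replicate 3. In this genotype they thus belonged to 1 mouse of 3. Of all genes, limma called 0.194% in WT and 0% in whole-body knockout livers, where 775 had an unadjusted p under 0.05 and the t-test called 0 after adjustment.

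Across the other sex-biased genes, the genotypes with vehicle differed in a few. With all 18 arrays, none of 18 male-biased genes passed limma's test in any vehicle comparison. At an unadjusted p under 0.05 there were 3, 3 and 4. These counts are in the order liver knockout against WT, whole-body knockout against WT and whole-body against liver knockout. Of all genes, 0.879%, 1.14% and 0.678% passed, and 12.6%, 13.3% and 12.2% had an unadjusted p under 0.05. Without the 2 singled-out arrays some passed, where 1.76%, 2.15% and 1.08% of all genes did. Nat8 and Gna14 differed by -1.96 and 1.03 in liver knockout against WT (adjusted p = 0.00108 and 0.0408 by limma). C8a and C9 differed by -0.49 and -0.76 in whole-body knockout against WT (adjusted p = 0.0319 and 0.00343 by limma). C9 differed by -0.82 between whole-body and liver knockout (adjusted p = 0.0055 by limma). With all 18 arrays, 2 of 22 female-biased genes rose in whole-body knockout against WT and 1 rose in whole-body against liver knockout. None passed in liver knockout against WT, where 5 had an unadjusted p under 0.05. Cyp17a1 was at 6.96, 6.82 and 8.70 in WT and at 10.00, 9.66 and 10.91 in whole-body knockout livers, a rise of 2.69 (standard error 0.54, adjusted p = 0.0206 by limma). It was at 9.39 to 9.54 in liver knockout livers. Without the 2 singled-out arrays its rise in liver knockout against WT passed too, at 1.95 (standard error 0.40, adjusted p = 0.0195 by limma). Fmo1, a flavin monooxygenase, rose by 0.56 between WT and whole-body knockout livers. Tox, a nuclear factor, rose by 0.92 between liver and whole-body knockout livers. Without the 2 arrays Slc22a27 also passed in both whole-body knockout comparisons, at 0.51 and 0.42, and Cd36 between the knockouts, at 1.83. The medians of the 18 male-biased genes were 0.14, -0.03 and -0.29 in the 3 comparisons, in that order, and those of the 22 female-biased genes were -0.01, 0.13 and 0.17, beside -0.01 over all genes in each.

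None of 16 growth hormone receptor signalling genes passed limma's test in a vehicle comparison or with GW4064 in the liver knockout. At an unadjusted p under 0.05 there were 0, 1 and 3 with vehicle, in the same order, and 2 with GW4064. Of all genes, 12.6%, 13.3%, 12.2% and 5.02% had an unadjusted p under 0.05, and 0.879%, 1.14% and 0.678% passed with vehicle. Of 14 targets, binding proteins and liver factors, Igfbp2, which binds insulin-like growth factors fell in both knockouts, with log2 differences from WT of -1.31 for the liver and -1.44 for the whole-body knockout (standard error 0.26, adjusted p = 0.0213 and 0.0109 by limma). It was at 11.37, 11.09 and 11.56 in WT vehicle livers, at 9.69 to 10.34 in liver knockout and at 9.40 to 10.42 in whole-body knockout livers. Igfbp3, the main carrier of IGF1 in blood, rose by 1.67 in whole-body knockout against WT (adjusted p = 0.00619 by limma). Between whole-body and liver knockout, Igfbp1 rose by 2.48 and 3 liver transcription factors fell, among them Foxa1 with a difference of -1.32 and Foxa3 with -0.83. The vehicle comparisons share their groups. Igf1 was at 12.12 to 12.64 in all vehicle livers.

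How far the members moved together depended on the singled-out arrays. Over 18 arrays, which fall into 6 groups, the 21 pairs of male-biased genes had Pearson correlations from 0.21 to 0.99, with a median of 0.78, and the 21 pairs of a male- and a female-biased gene a median of -0.80. Over the 16 other arrays the medians were 0.24 and -0.27. Over 16 arrays Susd4 had r = 0.62 with Cyp2d9, 0.50 with Hsd3b5 and 0.45 with Slco1a1. With Elovl3, Ugt2b38 and Cyp4a12a it had r = -0.51, -0.43 and -0.38. Cyp2b9 and Cyp2b13 had r = 0.86 over 18 and 0.78 over 16 arrays, the highest of the 3 female pairs in the latter. For Cyp2b13 with Sult3a1 these were 0.95 and 0.29.

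The genes most like the mean of the male-biased members over 18 arrays were Cyp7b1 (r = 0.97), C6, Nudt7, Scp2, Il1rap, Mup3, Abcg2 and C8b (r = 0.91). They encode a hydroxylase, complement proteins, peroxisomal proteins, an interleukin 1 receptor subunit, a urinary pheromone carrier and a urate and drug transporter. Mup3 belongs to a family of near-identical genes, so its probe set may read several of them. Without the 2 singled-out arrays Cyp7b1 was at r = 0.83, C8b at 0.79, C6 at 0.68 and Nudt7 at 0.67, whereas Il1rap was at 0.23 and Mup3 at 0.36. The genes most opposite were Ube2v2 (r = -0.95), Lgals3, Cstb, Sult2a2, Psat1, D17H6S56E-5, Ccng1 and Ctsd (r = -0.90), which include a galectin (Lgals3), a lysosomal protease (Ctsd), a cathepsin inhibitor (Cstb) and an enzyme of serine synthesis (Psat1). Ccng1, cyclin G1, was at r = -0.70 over 16 arrays and Sult2a2 at -0.04, the level of Sult2a2 being low in all of these. The list of like genes thus held some whose likeness was seen in the other arrays too and some for which it came from the 2 singled-out arrays.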

How the data were processed

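Liver RNA of 18 male mice was hybridised to 1 array each, in 6 groups of 3. The authors normalized the arrays with RMA, whose version is not stated in the sources used here, and deposited the log2 level of each probe set. No further scaling was applied in the main analysis. RMA sets the arrays to a common distribution and compresses differences at low levels. The methods name another array type than the one whose probe sets were deposited, so genes were named from the annotation of the platform of the values: 20393 of 22690 probe sets have 1 symbol, 691 have several and 1606 none. A gene was represented by its probe set with the highest mean. All genes were tested together with limma 3.58.1 in R 4.3.3 (a mean per group, two-sided, Benjamini-Hochberg adjustment over all 12394 genes, threshold 0.05), after a test on simulated data. The members and lists were chosen with earlier results of these data known. Named genes are all members, the FXR gene, up to 3 genes of a list past the threshold or up to 4 with the largest difference in a singled-out array, and the 8 genes most and 8 least like the mean of the male-biased members, predicted genes passed over. Any other is marked as named after its values were seen. Sequences are RefSeq's on GRCm38.p6. Array-by-array differences were computed in Python 3.11.15, with plots by matplotlib 3.10.9. The other data types of the study were not used here.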

Additional observations from a re-analysis of the deposited data

How the results depend on the processing

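None of the 10 genes was called in the vehicle comparisons or with GW4064 in the liver knockout under any of the alternatives. These were each probe set kept as its own row, averaged probe sets, median centring, quantile normalization and the 40% dimmest genes left out (8 members then remained). Others were a trended robust prior, array weights, the compared groups alone, the replicate number as a block and the methods' t-test after adjustment. The fit was also made without the 2 singled-out arrays and with each array left out. For GW4064 in WT and whole-body knockout livers no call of a member is given, since the members were chosen from those arrays. Without adjustment, at p under 0.05 and 1.5 fold, the methods' t-test called 1 member with GW4064 in the liver knockout and 0 in liver knockout against WT. Of all 12394 genes it called 36 and 140 there. With vehicle it called 1 member, Ugt2b38, in whole-body knockout against WT and the same 1 in whole-body against liver knockout. Of all genes it called 174 and 166 in these. Replicate numbers were not taken to pair the mice, since the labels do not say so. Of 45 same-numbered pairs of arrays 13 correlated above 0.1 (mean r = 0.041), against 12 of 90 differently numbered pairs (mean r = -0.020). The share was higher among same-numbered pairs, and whether a number marks a shared litter or day was not tested. With the replicate number as a block, Ugt2b38 kept a difference of -2.34 from WT (adjusted p = 0.151 by limma).

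The median difference of the male-biased genes in whole-body knockout GW4064 replicate 3 was -4.08 against the vehicle arrays of the genotype and -4.63 to -4.45 with either other array left out, and that of the female-biased genes 4.06 to 5.43. In WT GW4064 replicate 1 it was -2.09 against vehicle and -1.52 to -1.01 with either other array left out.

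With GW4064 in the whole-body knockout, signs turned without replicate 3. Without both singled-out arrays the differences were 0.033 for Cyp2d9, 0.87 for Cyp4a12a, 0.20 for Hsd3b5, 0.11 for Slco1a1 and -0.051 for Sult3a1, and Cyp4a12a was at 0.13 with array weights. With each array left out in turn they ranged from -1.48 to 0.033, -1.69 to 0.87, -3.44 to 0.20, -2.21 to 0.11 and -0.051 to 2.67. Other sign changes mostly concerned values near 0. Further from 0 with all arrays were the differences between whole-body and liver knockout of Cyp2b9, at 0.81, and Cyp4a12a, at -0.39. That of Cyp2b9 was -0.33 without whole-body knockout vehicle replicate 3. The ranges with each array left out are given here. With GW4064 in the liver knockout they were -0.33 to 0.69 for Elovl3 (-0.053 with array weights), -0.24 to 0.032 for Hsd3b5 and -0.020 to 0.099 for Slco1a1. In liver knockout against WT they were -0.57 to 0.48 for Ugt2b38, -0.073 to 0.10 for Cyp2b13 and -0.048 to 0.15 for Sult3a1. In whole-body knockout against WT they were -0.0017 to 0.32 for Cyp2d9, -0.062 to 0.32 for Hsd3b5, -0.020 to 0.26 for Slco1a1 and -0.0058 to 0.17 for Cyp2b13. In whole-body against liver knockout they were -0.086 to 0.11 for Cyp2d9, -0.65 to 0.084 for Cyp4a12a, -0.80 to 0.96 for Elovl3, -0.31 to 0.069 for Hsd3b5, -0.33 to 1.56 for Cyp2b9 and -0.014 to 0.14 for Cyp2b13. In these the cause was not tested. The number of arrays limits the precision.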
